A study of Mus musculus with 6 samples.

Results

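The D cyclins, the kinases Cdk4 and Cdk6 and the pocket proteins form the switch that decides whether a cell in G1 goes on to copy its DNA. The genes described here are Ccnd1, Ccnd2 and Ccnd3, Cdk4 and Cdk6, and Rb1, Rbl1 and Rbl2, 8 of the 18158 features in a table of transcript levels from mouse ventricles, chosen by gene symbol. The 6 libraries came from the hearts of outbred CD1 mice that were 3 months old. Of the mice, 3 had received paromomycin and neomycin (Paro/Neo), a pair of aminoglycoside antibiotics, by intraperitoneal injection at 150 mg/kg given 2 times a day, and 3 had received PBS, the vehicle, by injections given as daily, both for 14 days. The labels name no transgene or mutation in either group. Each library is the snap-frozen ventricles of 1 heart with all of their cell types, and the study's design text asks how gene expression changes where the drugs suppress the activity of Meis1 and Hoxb13, which was not measured here.

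In a cell given growth signals, D cyclins accumulate, bind Cdk4 or Cdk6 and activate them. The active kinases phosphorylate the retinoblastoma protein Rb1 and its relatives p107 (Rbl1) and p130 (Rbl2), which otherwise hold E2F transcription factors in check. With E2F and the MuvB core, p107 or p130 also represses cell cycle genes as the DREAM complex. INK4 proteins block the kinases, and CIP/KIP proteins act mainly on cyclin E and cyclin A with Cdk2. Cardiomyocytes of adult mammals have largely left the cell cycle, and forced D cyclin expression is a known way to make them synthesise DNA in mice. Much of the D cyclin mRNA of a whole ventricle may come from other cells, such as endothelial cells and fibroblasts, and mRNA levels say nothing of phosphorylation or kinase activity.

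Levels are in TPM, a measure of transcript abundance whose values are scaled to gene length and to the same total in each library, so levels of different genes can be set side by side. Depth, inferred from ratios of TPM between libraries, was 9556387 to 15969980 reads as a lower estimate, and the reads given for a gene are lower estimates of the same kind. Paro/Neo replicate 1 stood apart, with the lowest mean correlation with the other libraries, 0.9755 against 0.9814 to 0.9853 (Pearson, across genes). The labelled tissue was checked by 8 cardiomyocyte markers, which summed to 112382 to 143077 TPM in Paro/Neo hearts and 121816 to 131112 TPM in vehicle hearts.

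Cdk4 was the most abundant member and Cdk6 the least. Over the 6 hearts Cdk4 averaged 61.8 TPM, followed by Ccnd1 at 35.2, Ccnd2 at 32.8, Rb1 at 23.8, Rbl2 at 22.5, Ccnd3 at 22.4, Rbl1 at 2.0 and Cdk6 at 1.15 TPM. Cdk4 exceeded Ccnd1, Ccnd2 exceeded Rb1, Ccnd3 exceeded Rbl1 and Rbl1 exceeded Cdk6 in 6 of 6 hearts. The other neighbours changed places: Ccnd1 was above Ccnd2 in 1 of 3 Paro/Neo hearts and 3 of 3 vehicle hearts, Rb1 above Rbl2 in 2 of 3 Paro/Neo and 3 of 3 vehicle hearts, and Rbl2 above Ccnd3 in 3 of 3 Paro/Neo hearts and 0 of 3 vehicle hearts. All 8 members passed the filter on low values, 1 TPM in at least 3 libraries.

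Treated hearts held less Ccnd1, Ccnd3 and Cdk4 mRNA and slightly more Rb1 and Rbl2 mRNA than any vehicle heart, but none of these differences passed the test over all genes. By limma on log2(TPM + 1), 0 of 8 members had a Benjamini-Hochberg adjusted p under 0.05, where 0.137% of the 12409 genes tested did, 0.121% higher and 0.0161% lower. At an unadjusted p under 0.05, 3 of 8 members were lower in Paro/Neo hearts, against 4.37% of genes, and 0 were higher, against 3.24% (7.61% in either direction). The groups did not overlap for 3 members that were lower in Paro/Neo hearts, where 8.22% of genes are, and for 2 that were higher, where 6.04% are (14.3% in either direction). The remaining 3, Ccnd2, Cdk6 and Rbl1, overlapped. In whole ventricles fewer cells of a type and less RNA per cell cannot be told apart.

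**Figure D1:**
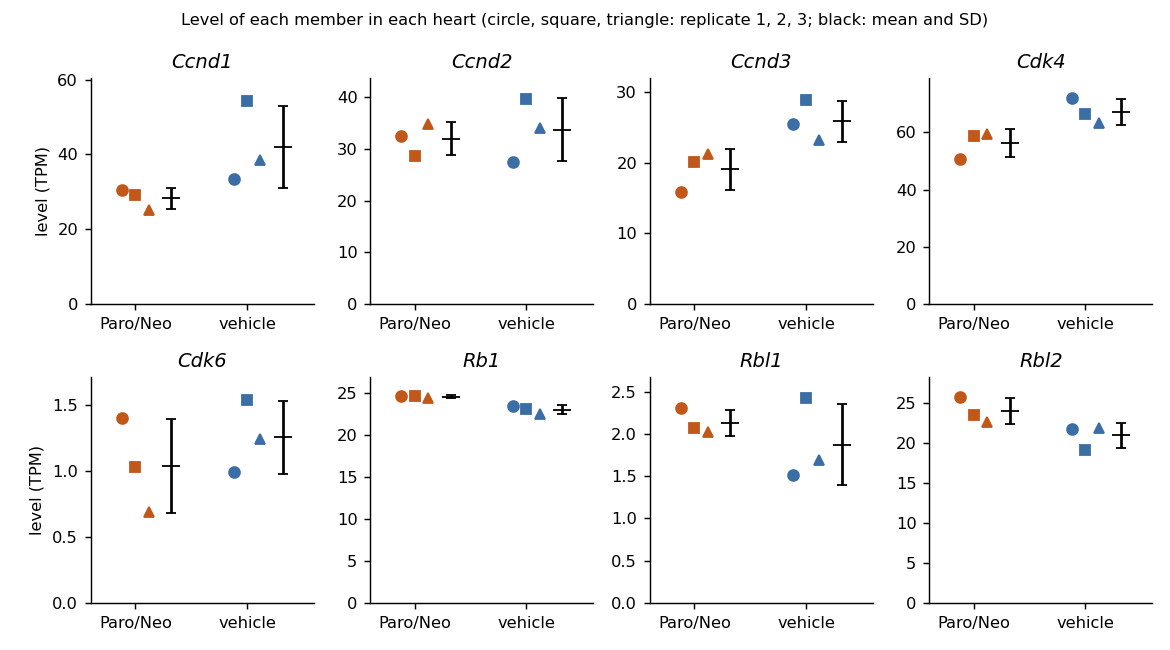
Level in TPM (y axis, from 0) of each of the 8 genes in the 3 Paro/Neo hearts (orange, left) and the 3 vehicle hearts (blue, right), with circle, square and triangle for replicates 1, 2 and 3 and the mean and SD in black. Ccnd1, Ccnd3 and Cdk4 lie lower in every Paro/Neo heart than in any vehicle heart, Rb1 and Rbl2 lie higher, and the other 3 overlap.

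Ccnd1 encodes cyclin D1, the D cyclin most often induced by growth factors. It was at 30.5, 29.1 and 25.1 TPM in Paro/Neo replicates 1 to 3, against 33.4, 54.4 and 38.5 TPM in vehicle replicates 1 to 3, from 616 to 1415 reads per library. Vehicle replicate 2 was the highest of the 6, and the vehicle hearts were more scattered than the treated ones. The means were 28.2 TPM ± 2.82 in Paro/Neo and 42.1 TPM ± 10.9 in vehicle hearts (SD, n = 3 each), a ratio of 0.67 and a log2 change of -0.54 ± 0.18 (SE), with a 95% interval for this gene alone of -0.95 to -0.12 and an adjusted p of 0.504 by limma. Without vehicle replicate 2 the log2 change was -0.34.

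Ccnd3 encodes cyclin D3, best known for its part in the expansion of lymphocyte precursors and present in many adult tissues. It was at 15.8, 20.1 and 21.2 TPM in the Paro/Neo hearts, against 25.4, 28.9 and 23.2 TPM in the vehicle hearts, from 258 to 470 reads. The lowest value came from Paro/Neo replicate 1, the library that stood apart, and without it the treated hearts still lay at 20.1 to 21.2 TPM against 23.2 to 28.9 TPM in vehicle hearts. The log2 change was -0.43 ± 0.14 (SE), with a 95% interval of -0.75 to -0.10 and an adjusted p of 0.503 by limma. Leaving out Paro/Neo replicate 1 gave a log2 change of -0.30.

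Ccnd2, which encodes cyclin D2, a cyclin whose forced expression in mouse cardiomyocytes is known to drive DNA synthesis, was at 32.5, 28.6 and 34.9 TPM in Paro/Neo hearts and at 27.4, 39.6 and 34.0 TPM in vehicle hearts. All 3 treated values lay within the vehicle range. The log2 change was -0.06 ± 0.15 (SE), its 95% interval ran from -0.41 to 0.28, and the adjusted p by limma was 0.933. Its sign turned when vehicle replicate 2 (0.06) or Paro/Neo replicate 2 (0.02) was left out.

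Together the D cyclins summed to 78.7, 77.8 and 81.1 TPM in Paro/Neo hearts, against 86.2, 123 and 95.7 TPM in vehicle hearts. The treated hearts were close to each other and all below the vehicle hearts, a difference in means of -22.4 TPM (exact permutation test, two-sided, p = 0.10, adjusted 0.22 over 11 sums, ratios and shares). With 3 hearts per group 0.10 is the smallest p this test can give. Without vehicle replicate 2 the difference was -11.7 TPM. The make-up of the sum differed in the same libraries: Ccnd2 supplied 41.3%, 36.7% and 43.0% of it in Paro/Neo hearts and 31.8%, 32.2% and 35.5% in vehicle hearts, again with no overlap (exact permutation p = 0.10, adjusted 0.22). Ccnd1 supplied 38.7%, 37.4% and 30.9% in Paro/Neo hearts against 38.8%, 44.3% and 40.2% in vehicle hearts, groups that stood just apart (exact permutation p = 0.10, adjusted 0.22). The Ccnd3 share overlapped, at 20.0% to 26.1% in Paro/Neo and 23.5% to 29.5% in vehicle hearts (exact permutation p = 0.60, adjusted 0.825). The shares add up to 100% in each heart, so they are not separate results from the lower Ccnd1 and Ccnd3 levels. The level of Ccnd2 itself had a log2 change of -0.06.

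**Figure D2:**
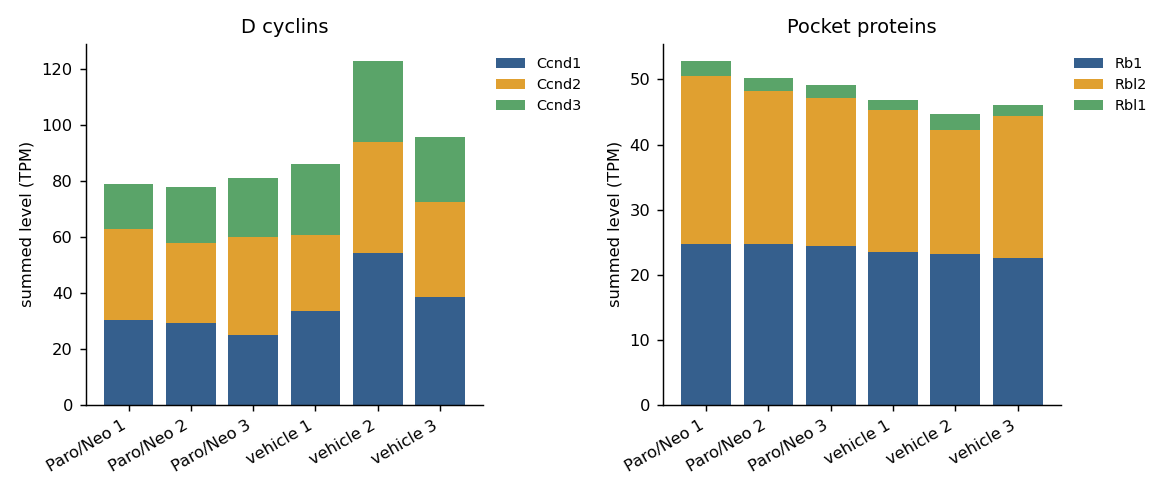
Summed level in TPM (y axis, from 0) of the D cyclins (left panel) and of the pocket proteins (right panel) in each heart, Paro/Neo hearts first, with 1 colour per gene. The D cyclin bars of Paro/Neo hearts reach 77.8 to 81.1 TPM and those of vehicle hearts 86.2 to 123 TPM, while the pocket protein bars reach 49.1 to 52.8 TPM in Paro/Neo hearts and 44.8 to 46.9 TPM in vehicle hearts.

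Nearly all of the kinase mRNA was Cdk4. Cdk4, the D cyclin partner of most adult tissues, was at 50.8, 58.9 and 59.3 TPM in Paro/Neo hearts, against 72.0, 66.4 and 63.2 TPM in vehicle hearts, from 418 to 793 reads. Every treated heart lay below every vehicle heart, with Paro/Neo replicate 1 the lowest. The log2 change was -0.25 ± 0.11 (SE), with a 95% interval of -0.50 to -0.01 and an adjusted p of 0.646 by limma. Cdk6, its paralog, prominent in blood cells, was at 1.40, 1.03 and 0.688 TPM in Paro/Neo hearts against 0.989, 1.54 and 1.24 TPM in vehicle hearts. These values rest on 11 to 28 reads per library and the groups overlapped (log2 change -0.15 ± 0.19 SE, adjusted p 0.846 by limma). With 1 library left out the change ran from -0.28 without Paro/Neo replicate 1 to -0.02 without Paro/Neo replicate 3. Cdk6 made up 1.15% to 2.69% of the kinase sum in Paro/Neo hearts and 1.36% to 2.26% in vehicle hearts (exact permutation p = 1.00).

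The kinase sum was 52.2, 60.0 and 60.0 TPM in Paro/Neo hearts against 72.9, 68.0 and 64.4 TPM in vehicle hearts, without overlap (exact permutation p = 0.10, adjusted 0.22). The ratio of D cyclin to kinase mRNA overlapped widely, at 1.51, 1.30 and 1.35 in Paro/Neo hearts and 1.18, 1.81 and 1.49 in vehicle hearts (exact permutation p = 0.70, adjusted 0.856). Leaving out vehicle replicate 2 turned the sign of that difference, from -0.106 with all hearts to 0.0522.

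Of the promoters, windows of 300 bases around a RefSeq start (GRCm38.p6), those of Cdk4 and Ccnd3, which were lower in every treated heart, and that of Rbl1, an E2F target gene, are shown as annotated sequence around the starts, with capitals for the motif named. In Cdk4 capitals mark the E-box CACGTG, which Myc and related factors bind and which the window on chromosome 10 holds 4 times. In Ccnd3 they mark TGACAG, the core of the motif that Meis factors bind, in its reverse spelling, in the window of the downstream start on chromosome 17. In Rbl1 they mark an E2F motif on chromosome 2.
Cdk4, chr10:127063285-127063584, plus strand: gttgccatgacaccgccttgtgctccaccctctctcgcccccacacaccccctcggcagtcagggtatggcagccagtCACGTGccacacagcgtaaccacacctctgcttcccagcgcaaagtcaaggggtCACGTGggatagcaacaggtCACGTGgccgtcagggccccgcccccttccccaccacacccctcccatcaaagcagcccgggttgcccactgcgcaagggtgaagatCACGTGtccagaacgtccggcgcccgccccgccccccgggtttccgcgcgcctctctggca
Ccnd3, chr17:47593217-47593516, plus strand: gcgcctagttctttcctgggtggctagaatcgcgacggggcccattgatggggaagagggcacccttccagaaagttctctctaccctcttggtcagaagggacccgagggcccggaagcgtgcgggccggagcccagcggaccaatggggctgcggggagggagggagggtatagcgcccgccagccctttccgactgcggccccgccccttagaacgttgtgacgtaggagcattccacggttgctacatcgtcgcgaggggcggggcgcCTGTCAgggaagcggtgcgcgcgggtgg
Rbl1, chr2:157204485-157204784, minus strand: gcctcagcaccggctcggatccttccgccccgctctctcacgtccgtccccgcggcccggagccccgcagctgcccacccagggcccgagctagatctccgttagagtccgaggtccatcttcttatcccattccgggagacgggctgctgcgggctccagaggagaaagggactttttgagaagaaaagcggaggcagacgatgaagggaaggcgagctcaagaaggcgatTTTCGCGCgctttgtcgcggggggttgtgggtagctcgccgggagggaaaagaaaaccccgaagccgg
On both strands of 32851 such windows, 7.15% held CACGTG, 19.2% held TGACAG and 2.26% held one of the E2F spellings TTTGGCGC, TTTCGCGC, TTTCCCGC and TTTGCCGC, while the cyclic AMP response element TGACGTCA stood in 1.79% of them and in none of the 6 windows of members. TGACAG is in 1 of these 6 windows, and the E2F spellings in 1. Cdk6 holds 1 E-box, while the upstream start of Ccnd3 and the window of Rbl2 hold none of the motifs. A match describes the letters of the window and is not a site of binding. Windows for Ccnd1, Ccnd2 and Rb1 were not analysed here.

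Of the pocket proteins, Rb1 and Rbl2 stood apart between groups and Rbl1 overlapped, and none passed the test. Rb1, the retinoblastoma protein itself, was at 24.7, 24.7 and 24.4 TPM in Paro/Neo hearts, against 23.5, 23.1 and 22.5 TPM in vehicle hearts, from 512 to 924 reads. The hearts of each group lay close together and the groups stood apart, while the ratio of means was 1.07. The log2 change was 0.09 ± 0.09 (SE), where the SE borrows from genes of like level and exceeds the spread of these 6 values, with a 95% interval of -0.12 to 0.30 and an adjusted p of 0.821 by limma. Rbl2, whose product p130 is the pocket protein typical of resting cells, was at 25.8, 23.5 and 22.7 TPM in Paro/Neo hearts against 21.8, 19.2 and 21.9 TPM in vehicle hearts. Paro/Neo replicate 1 was the highest and vehicle replicate 2 the lowest, and the log2 change was 0.19 ± 0.11 (SE, 95% interval -0.06 to 0.43, adjusted p 0.723 by limma).

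Rbl1, whose product p107 is typical of cycling cells, was at 2.31, 2.07 and 2.02 TPM in Paro/Neo hearts against 1.51, 2.42 and 1.69 TPM in vehicle hearts, on 45 to 101 reads. The treated values lay within the vehicle range, and the log2 change was 0.14 ± 0.16 (SE, adjusted p 0.840 by limma). With 1 library left out it ran from 0.04 without vehicle replicate 1 to 0.27 without vehicle replicate 2. Rb1 and Rbl2 each supplied close to the same part of the pocket protein mRNA, 46.7% to 49.6% and 46.3% to 48.9% in Paro/Neo hearts and 48.8% to 51.7% and 42.9% to 47.5% in vehicle hearts, and Rbl1 supplied 4.12% to 4.36% in Paro/Neo and 3.22% to 5.42% in vehicle hearts. The exact permutation p for these shares was 0.30 for Rb1, 0.50 for Rbl2 and 1.00 for Rbl1 (adjusted 0.55, 0.786 and 1.0). Their sum was 52.8, 50.2 and 49.1 TPM in Paro/Neo hearts against 46.9, 44.8 and 46.1 TPM in vehicle hearts, higher in each treated heart (exact permutation p = 0.10, adjusted 0.22).

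**Figure D3:**
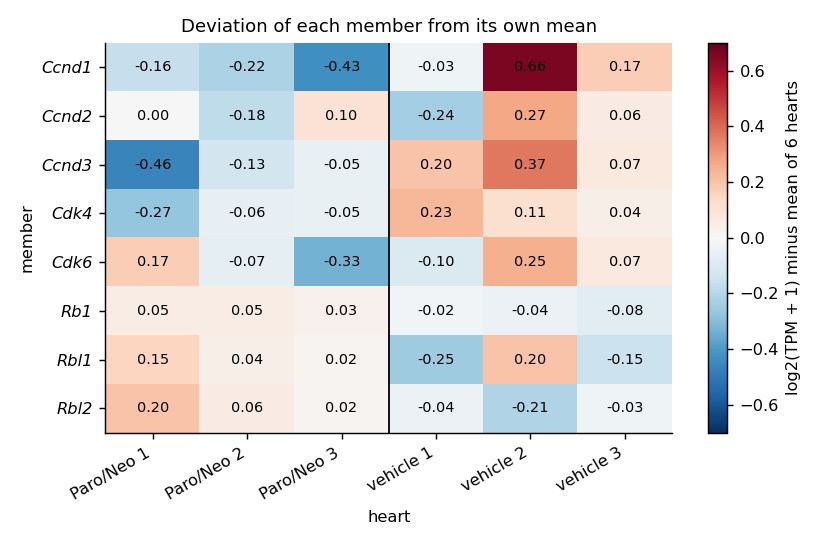
Deviation of log2(TPM + 1) from the mean of the 6 hearts for each gene (rows), with Paro/Neo hearts left of the line and vehicle hearts right of it. Ccnd1, Ccnd3 and Cdk4 are below 0 in every Paro/Neo heart, Rb1 and Rbl2 above 0, and vehicle replicate 2 has the highest value of Ccnd1 (0.66), Ccnd2 (0.27), Ccnd3 (0.37) and Cdk6 (0.25).

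Vehicle replicate 2 had the highest level of all 3 D cyclins, of Cdk6 and of Rbl1, and the lowest of Rbl2. The same heart had the highest summed level of 8 markers of cycling cells, 16.3 TPM, against 8.53 and 11.1 TPM in the other vehicle hearts and 10.8, 9.39 and 5.03 TPM in Paro/Neo hearts. Of these 8 markers 3 passed the filter to be tested. Ccnb1, Aurkb, Birc5, Bub1 and Plk1 did not, with 1 to 28 reads per library. Vehicle replicate 2 also had the highest sum of 8 endothelial markers, 659 TPM, with the other vehicle hearts at 574 and 578 TPM and the Paro/Neo hearts at 457 to 590 TPM. Of these markers Cdh5 (93.5 TPM), Kdr (72.8) and Tie1 (31.5) were at their highest in this heart. Pecam1, Tek, Egfl7, Emcn and Flt1 were each highest in another heart. Paro/Neo replicate 1, lowest in Ccnd3 and Cdk4, had the lowest sums of cardiomyocyte (112382 TPM), endothelial (457 TPM) and fibroblast markers (2227 TPM). The markers of these lists were each at their lowest in this heart except Tnnt2 (18018 TPM), Pln (18720), Emcn (144), Lum (294) and Postn (48.1). Of these exceptions, Pln was at its highest there. The sums of mural cell (692 TPM) and macrophage markers (649 TPM) in this heart were the highest, but rested mostly on Rgs5 (610 TPM) and Lyz2 (441 TPM). The mural cell markers Pdgfrb (7.79 TPM), Acta2 (14.8), Myh11 (2.2), Cspg4 (1.07) and Notch3 (1.09) were at their lowest in this heart. The macrophage marker Cd68 (9.51 TPM) was also at its lowest there, and the remaining markers of both lists were neither highest nor lowest.

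Gene models on the opposite strand share exon sequence with most of the members (GENCODE M21, GRCm38). Ccnd1, on chromosome 7 at 144929931 to 144939925, shares 1100 exon bases, 23.4% of its own, with the gene that the table lists as Oraov1, and Cdk4, on chromosome 10 at 127063534 to 127067920, shares 641, or 19.7%, with Tspan31. The library kit keeps strand, but whether the counting used it is not given in the sources used here. How reads of these stretches were assigned is therefore not known. Oraov1 was at 22.3, 22.2 and 18.9 TPM in Paro/Neo hearts and at 24.7, 20.1 and 22.8 TPM in vehicle hearts, overlapping where Ccnd1 does not. Tspan31 was at 72.3, 84.3 and 84.1 TPM in Paro/Neo hearts and at 91.4, 83.7 and 86.3 TPM in vehicle hearts, overlapping where Cdk4 does not. Like Cdk4 (50.8 and 72.0 TPM), Tspan31 was lowest in Paro/Neo replicate 1 and highest in vehicle replicate 1. Whether shared reads have a part in that likeness was not tested. For Ccnd2, Ccnd3, Cdk6, Rb1 and Rbl2 the exon bases shared with any single opposite gene were 2.6% to 11.8% of their own, and for Rbl1 there were none.

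For each D cyclin the genes of most similar profile were taken, by the root-mean-square distance of centred log2(TPM + 1) values over the 6 hearts among 9109 genes with a mean of at least 5 TPM. For Ccnd1 these were Ctla2a (distance 0.0648), Itga6 (0.124) and Fam101b (0.13). Ctla2a was at 55.4, 53.9 and 47.0 TPM in Paro/Neo hearts and at 67.9, 94.5 and 72.2 TPM in vehicle hearts, the same order of hearts as Ccnd1. For Ccnd2 they were 2810001G20Rik (0.0422), Skap2 (0.0445) and Vegfc (0.0484), and for Ccnd3 Elovl1 (0.0439), Enc1 (0.0484) and G6pdx (0.0531). The likeness is over 6 hearts and is a description of these libraries.

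Around the 8 genes, the rest of the pathway held no gene past the threshold by limma in either direction. Of the Cdk inhibitors, 6 of 7 could be tested and all 6 were lower in Paro/Neo hearts by small amounts. Their median log2 change was -0.09, where the median over all genes was -0.02, and 0 had an unadjusted p under 0.05. Cdkn2c, which encodes the INK4 inhibitor p18, was at 14.3, 15.5 and 13.0 TPM in Paro/Neo hearts and 15.3, 16.0 and 14.7 TPM in vehicle hearts. Cdkn2b, which encodes p15, was at 1.42, 1.50 and 0.998 TPM in Paro/Neo and 1.58, 1.78 and 1.02 TPM in vehicle hearts, on 7 to 18 reads. Both overlapped between groups.

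Among the E2F and DP factors, 6 of 10 could be tested, with 3 higher and 3 lower (median 0.01). E2f4, the E2F factor that works mainly with Rbl1 and Rbl2 as a repressor, was at 9.43, 8.85 and 10.1 TPM in Paro/Neo hearts, against 12.5, 12.9 and 11.1 TPM in vehicle hearts. Tfdp2, a DP partner of E2F proteins, was at 46.9, 35.0 and 34.7 TPM in Paro/Neo hearts, against 28.7, 25.4 and 31.5 TPM in vehicle hearts. Both stood apart between groups without passing the test, E2f4 with a log2 change of -0.33 ± 0.11 and Tfdp2 with 0.43 ± 0.15 (SE, adjusted p 0.521 and 0.522 by limma). E2f1, the activator E2F held by Rb1, had only 6 to 18 reads per library and was left out by the filter, as were E2f2, E2f7 and E2f8.

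Of the genes for D cyclin turnover and Cdk activation, 7 of 10 were higher and 3 lower (median 0.09). Fbxo31, an F-box protein that targets cyclin D1 for degradation, was at 17.9, 17.5 and 18.3 TPM in Paro/Neo hearts, against 14.1, 15.6 and 11.6 TPM in vehicle hearts, without overlap (log2 change 0.37 ± 0.13 SE, adjusted p 0.525 by limma). Fbxw8, also described as a cyclin D1 ligase component, was at 9.66, 13.2 and 13.0 TPM in Paro/Neo and 14.6, 13.3 and 15.3 TPM in vehicle hearts. Fbxw8 thus lay lower in treated hearts, by a narrow gap (log2 change -0.26 ± 0.14 SE, adjusted p 0.708 by limma, and -0.13 without Paro/Neo replicate 1), and Ambra1, which marks all D cyclins for degradation, was at 5.19 to 5.95 TPM in Paro/Neo and 5.01 to 5.76 TPM in vehicle hearts.

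Downstream, 4 of 5 tested genes of cyclin E, cyclin A and Cdk2 were lower and 1 higher (median -0.11). Ccna2, the S and G2 phase cyclin, was at 3.56, 3.35 and 1.48 TPM in Paro/Neo hearts and 2.35, 6.17 and 4.27 TPM in vehicle hearts, and Cdk2 at 4.93, 6.76 and 7.62 TPM in Paro/Neo and 7.28, 6.78 and 7.44 TPM in vehicle hearts. Both overlapped. In the MuvB list 4 of 5 tested genes were higher and 1 lower (median 0.10), with Lin9 at 4.07 to 4.69 TPM in Paro/Neo and 3.28 to 4.30 TPM in vehicle hearts and Lin52 at 14.0 to 17.6 TPM in Paro/Neo and 11.7 to 17.3 TPM in vehicle hearts. B-Myb, Mybl2, had 0 to 6 reads per library.

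Of the E2F target genes of S phase, 15 of 18 could be tested, 5 of them higher and 10 lower in Paro/Neo hearts (median -0.10). Mcm5, a subunit of the replicative helicase, was at 1.91, 1.57 and 1.35 TPM in Paro/Neo hearts and 1.82, 2.86 and 2.38 TPM in vehicle hearts. The groups overlapped by 1 pair of hearts, and the log2 change was -0.35 ± 0.17 (SE, adjusted p 0.687 by limma).

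**Figure D4:**
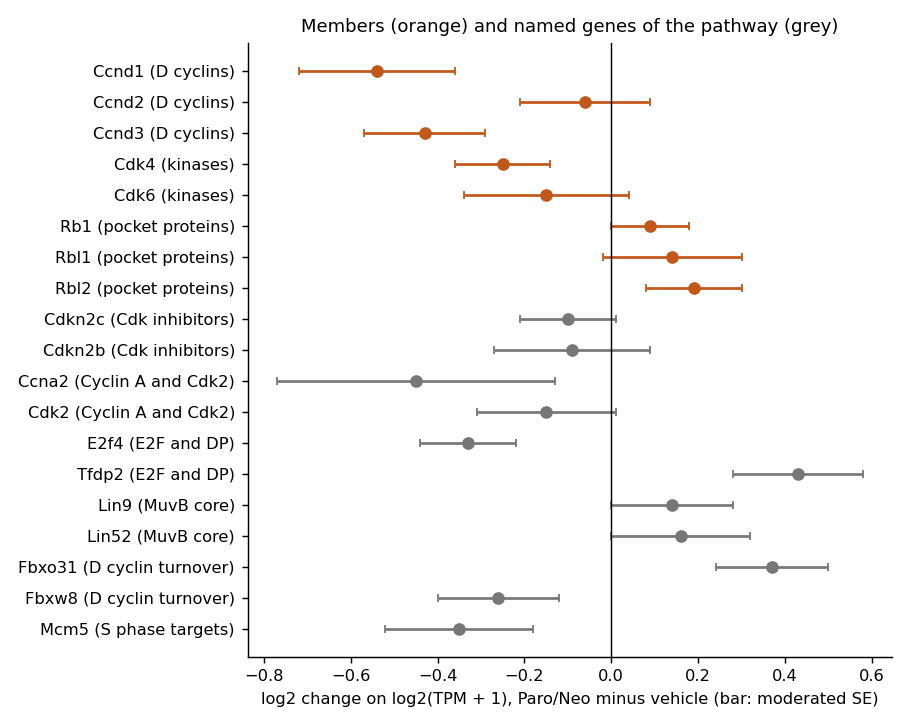
Log2 change on the log2(TPM + 1) scale (x axis, Paro/Neo minus vehicle) with the moderated SE as bars, for the 8 members (orange) and for the named genes of the pathway lists (grey). The D cyclins and kinases lie between -0.54 and -0.06 and the pocket proteins between 0.09 and 0.19, and none passed the threshold.

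Markers of the ventricle's cell types were read in the same libraries. In Paro/Neo hearts 8 of 8 fibroblast markers were lower (median log2 change -0.48), 4 at an unadjusted p under 0.05 and a smallest adjusted p of 0.434 by limma. Of all genes tested, 4.37% were lower at that unadjusted p. The larger changes were in Col1a1 (-0.83), Col3a1 (-0.82), Col1a2 (-0.78) and Postn (-0.66), with Tcf21 at -0.30. Pdgfra (-0.11), Lum (-0.03) and Dcn (-0.02) changed little and overlapped between groups. The summed level of the 8 markers was 2227 to 2465 TPM in Paro/Neo and 2506 to 2642 TPM in vehicle hearts, most of it Dcn. Of 8 endothelial markers 6 were lower and 2 higher, with sums of 457 to 590 TPM in Paro/Neo and 574 to 659 TPM in vehicle hearts. Of 8 mural cell markers 7 were lower, with sums of 398 to 692 TPM in Paro/Neo and 450 to 544 TPM in vehicle hearts, and of 8 macrophage markers 7 were higher, with sums of 586 to 649 TPM in Paro/Neo and 495 to 616 TPM in vehicle hearts. Cycling cell markers, of which 3 of 8 passed the filter, summed to 5.03 to 10.8 TPM in Paro/Neo and 8.53 to 16.3 TPM in vehicle hearts. The 7 lymphocyte markers summed to 2.20 to 3.93 TPM in Paro/Neo and 1.02 to 2.03 TPM in vehicle hearts. Each of these 7 had 0 to 11 reads per library, and 0 of them passed the filter to be tested. No marker was at 0 in all 6 hearts, and the part of these cell types in the levels of the D cyclins, kinases and pocket proteins was not tested.

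**Figure D5:**
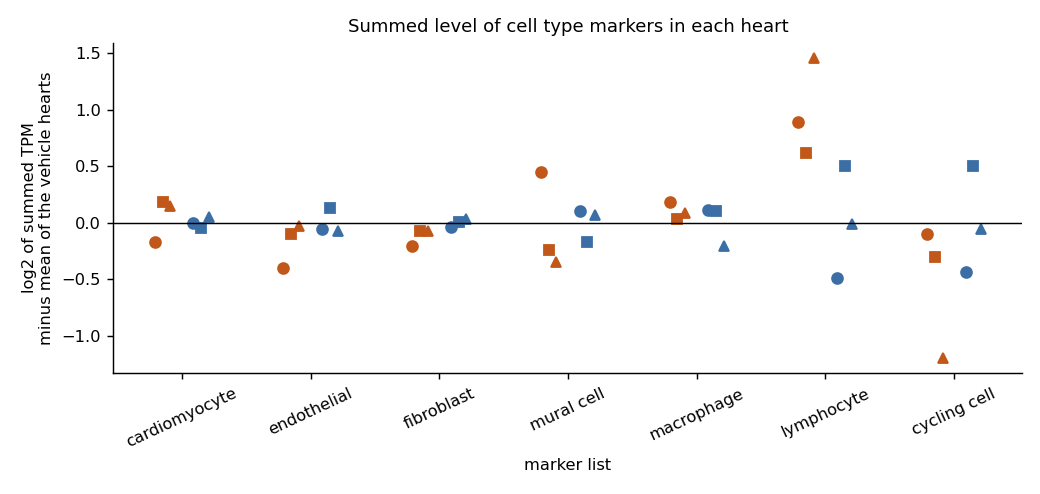
Log2 of the summed TPM of the markers relative to the mean of the vehicle hearts (y axis, 0 is that mean) for each marker list (x axis), in Paro/Neo hearts (orange, left) and vehicle hearts (blue, right), with circle, square and triangle for replicates 1, 2 and 3. Every Paro/Neo heart lies below every vehicle heart for fibroblast markers and above every one for the scarce lymphocyte markers, and the groups overlap for cardiomyocyte, endothelial, mural, macrophage and cycling cell markers.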

How the data were processed

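Each of the 6 libraries is 1 mouse, grouped by sample title. Per the labels' protocols, powdered ventricles gave RNA for stranded mRNA libraries read at 76 bp. The authors deposited TPM values. STAR 2.5.3a, FastQC 0.11.5, edgeR, Subread and featureCounts are named, with build mm10, by the submitters' processing notes. The annotation, strand setting and feature filter are not stated there. TPM keeps no depth, but ratios between libraries gave whole reads, within 0.001 of a read, for 17574 of 17574 features above 0, up to a factor shared by all libraries.

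Values were tested as log2(TPM + 1), which understates changes of low genes, with limma 3.58.1 in R 4.3.3 (intensity trend), over 12409 genes (a minimum of 1 TPM in 3 libraries), with Benjamini-Hochberg adjustment over all of them and a threshold of 0.05. The fit was tested on simulated data. The labels call the libraries biological replicates but no label ties replicate numbers to a litter or day. Sums and shares were compared by exact permutation tests. Gene positions are from GENCODE M21, promoters from RefSeq. Outside the members, each pathway list is named by the genes past the threshold, filled to the 2 of smallest p (1 such gene is not reported here), while other genes named were chosen after their values were seen. The members and lists were chosen with earlier results of these data known. Alternatives were other pseudocounts and filters, a replicate block, median-of-ratios scaling, array weights, leaving out each library and, added after seeing the data, voom on the inferred reads.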

Additional observations from a re-analysis of the deposited data

How the results depend on the processing

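No member passed the threshold under any of the 13 alternatives, with adjusted p from 0.362 to 0.983 (limma), and 7 of 8 members kept their direction in all alternatives that tested them. The stricter filter, 5 TPM, left Cdk6 and Rbl1 untested. The log2 change of Ccnd2 ran from -0.20 to 0.06 with 1 library left out, that of Cdkn2b from -0.22 to 0.01 and that of Cdk2 from -0.27 to 0.0026. The causes were not tested.

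Of all genes tested, Paro/Neo hearts had 15 higher and 2 lower past the threshold. The counts were 1 and 0 with no filter, 25 and 2 with the replicate block, 19 and 1 with the stricter filter, 22 and 4 with array weights, and 4 to 23 and 0 to 4 with 1 library left out. The replicate block, by the numbers of the sample titles, changed no call of a member. Hearts of the same title number did not deviate together (correlations of -0.0528, -0.0356 and -0.122). The deposited columns number the Paro/Neo hearts 2 to 4. Hearts that share a number there had correlations of -0.0519 and 0.0107, and a block on those numbers was not fitted. Median-of-ratios scaling moved the median of all genes from -0.0169 to 0.0041 and kept the same 5 members apart. The median of the cyclin E, cyclin A and Cdk2 list was -0.17 with a pseudocount of 0.1, -0.0032 with the stricter filter, -0.19 with voom and -0.18 to -0.04 with 1 library left out. That of the turnover list was 0.03 with array weights and 0.05 to 0.11 with 1 library left out. With 1 library left out, the medians of the other lists ran from -0.12 to 0.07 for E2F and DP factors, from -0.15 to -0.02 for Cdk inhibitors (-0.01 with array weights), from -0.16 to -0.04 for E2F targets (-0.18 with array weights) and from 0.05 to 0.12 for MuvB. Cdk6 and Cdkn2b rest on few reads, 11 to 28 and 7 to 18 per library.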
